A study of Homo sapiens with 6 samples.

Results

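The lysosomal genes described here are 44 genes fixed by name: proteases, glycosidases, sulfatases, enzymes and activators of sphingolipid breakdown, membrane proteins, proton pump subunits and the transcription factors TFEB, TFE3 and MITF. They were read from a table of 26347 gene rows, in which all 44 had a row. All 44 also passed the filter on low counts and were tested among 14731 genes, with 37 to 36061 counts per library. The RNA came from THP-1, a cell line established from a human monocytic leukaemia, grown in RPMI with fetal bovine serum and taken 24 h after transfection of a synthetic microRNA. The control group (3 libraries) received a negative control mimic and the other group (3 libraries) a miR-125a-5p mimic. The series is titled as a study of macrophages, while the labels call the cells monocytic and give no differentiation step. Whether the libraries of a group came from separate cultures is not in the labels, so each p-value reflects the variation among 6 libraries only, and that variation may be technical.

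A lysosome digests protein, glycans, lipids and nucleic acids with hydrolases that work at acid pH. The acid is made by the V-ATPase, a proton pump in the membrane, and most of the enzymes reach the lysosome by a mannose 6-phosphate tag. TFEB, TFE3 and MITF are related transcription factors that bind the CLEAR element in promoters of many lysosomal genes. Monocytes and macrophages are rich in lysosomes, which digest what these cells engulf. A microRNA pairs through its seed, bases 2 to 8, with sites in the 3′ untranslated region (3′ UTR) of messenger RNAs, and lowers many of the transcripts that carry such sites.

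The sequences below let the seed of the mimic be compared with matches in transcripts. They are the mature microRNA (RefSeq, GRCh38.p14), its relative miR-125b-5p with the same seed, and full 8-base seed matches in 3′ UTRs. Whether the mimic acts through these matches was not tested. Capitals mark the seed in the microRNAs and the match in the transcripts.
hsa-miR-125a-5p: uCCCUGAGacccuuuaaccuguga
hsa-miR-125b-5p: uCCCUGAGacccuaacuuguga
PPT1 site: tcacaatagagCTCAGGGAgcccctaactc
SCARB2 site: aactcacttctCTCAGGGAaaattaggagt
LIPA site: tgcaaactcagCTCAGGGAttcattttgtg
NEU1 site: atcaatgtgaaCTCAGGGAactggggaagg
The annotation was GENCODE 29 on GRCh38, a later build than the hg19 used for the counts. All 4 sites lie on the minus strand in the 3′ UTR of the last exon: PPT1 in exon 9 of 9 (window chr1:40074019-40074048), SCARB2 in exon 12 of 12 (chr4:76159119-76159148), LIPA in exon 10 of 10 (chr10:89213846-89213875) and NEU1 in exon 6 of 6 (chr6:31859369-31859398). PPT1 and SCARB2 belong to the 44 genes. LIPA, the acid lipase that splits cholesteryl esters, and NEU1, the lysosomal sialidase, do not.

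The comparison asked which of these transcripts differed between the miR-125a-5p mimic and the control mimic. None of the 44 passed edgeR's quasi-likelihood test (Benjamini-Hochberg adjustment over all 14731 genes, threshold 0.05), and their smallest adjusted p was 0.833. Among all genes tested 4 were called lower (0.0272%) and 0 higher (0%), with 397 higher at an unadjusted p under 0.05 and 2 called higher by DESeq2. At an unadjusted p under 0.05, 1 of the 44 was lower and 0 were higher, against a background of 3.22% lower and 2.69% higher. DESeq2, limma voom and edgeR's likelihood ratio test also called 0 of the 44. LIPA, one of the 4 called genes, stood at 285, 204 and 191 CPM (read counts divided by library size, with edgeR's TMM scaling) in control libraries 1, 2 and 3 and at 123, 109 and 100 CPM in miR-125a-5p libraries 1, 2 and 3. Its log2 fold change was -1.03 (95% interval -1.29 to -0.78, edgeR adjusted p = 0.000203), and every miR-125a-5p library lay below every control library. In bulk RNA, fewer cells with a transcript and less of it per cell cannot be told apart.

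The fold changes of the 44 genes were small. On the log2 scale they ran from -0.28 (SGSH) to 0.40 (MCOLN1), 27 were negative and 17 positive, and the median was -0.044, beside a median of 0.0011 and 49.8% negative over all tested genes. The 95% interval lay wholly between -0.5 and 0.5, a 1.41-fold change either way, for 38 of the 44, and for 50.5% of all tested genes. The other 6 were LGMN, ARSA, FUCA1, SGSH, MCOLN1 and TFEB, which are among the less abundant of the 44. The median SE was 0.106 for the 44 and 0.169 for all tested genes. The shares of genes within these bounds were not matched for abundance, so their gap cannot be read as particular to the 44. The lowest bound of any of the 44 intervals was -0.66, for TFEB, which lies above the upper bound for LIPA. The libraries of the groups did not overlap for 2 of the 44, SGSH with all miR-125a-5p libraries below the controls (background 5.9%) and FUCA1 with all above (background 5.31%), so 2 in all against a background of 11.2%.

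**Figure D1:**
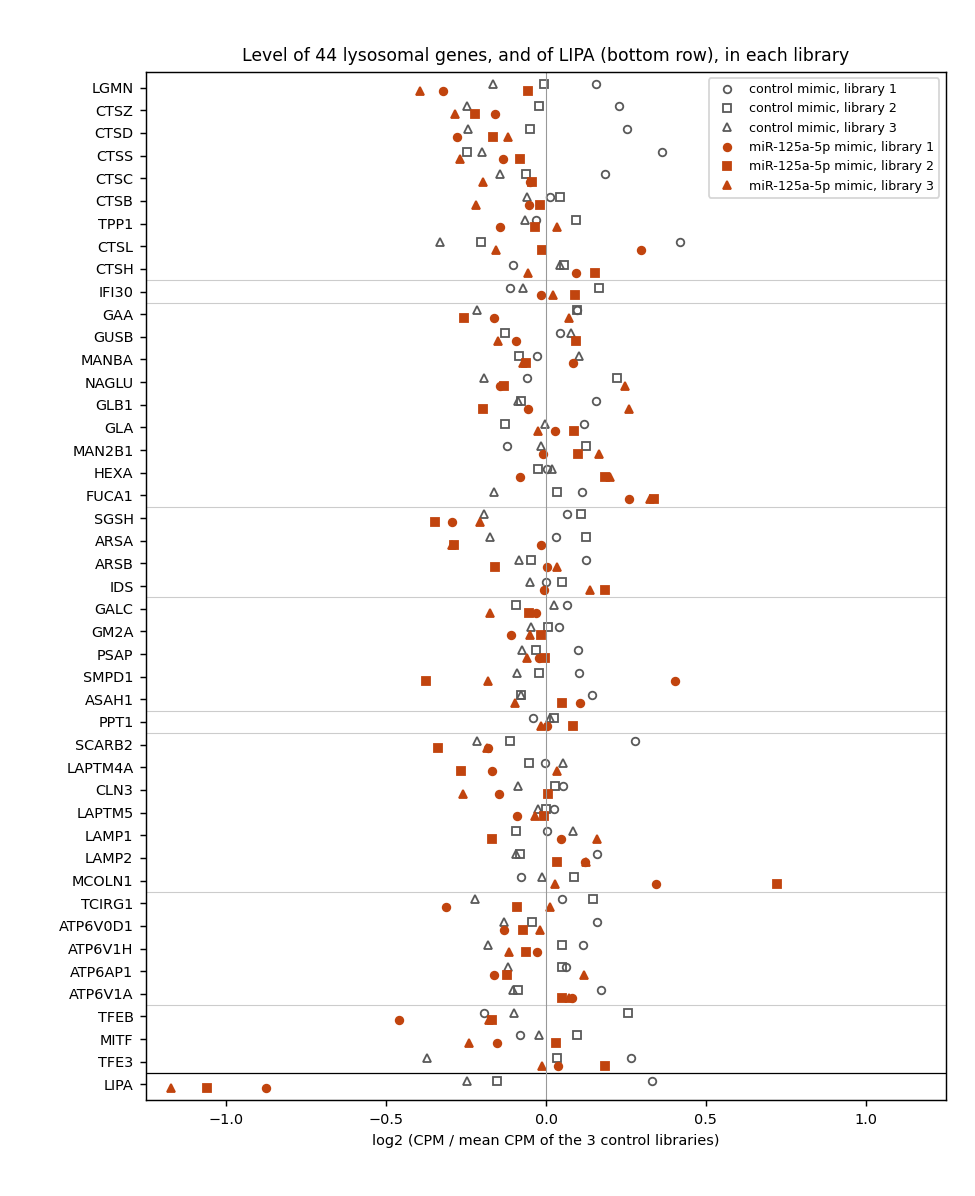
Level of each of the 44 genes, grouped by role, and of LIPA in the bottom row. The x axis is the log2 ratio of the CPM in a library to the mean CPM of the 3 control libraries, open grey symbols are control and filled red symbols miR-125a-5p libraries, with a circle, square and triangle for libraries 1, 2 and 3. Control and miR-125a-5p symbols overlap in 42 of 44 rows, and those of LIPA do not.

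**Figure D2:**
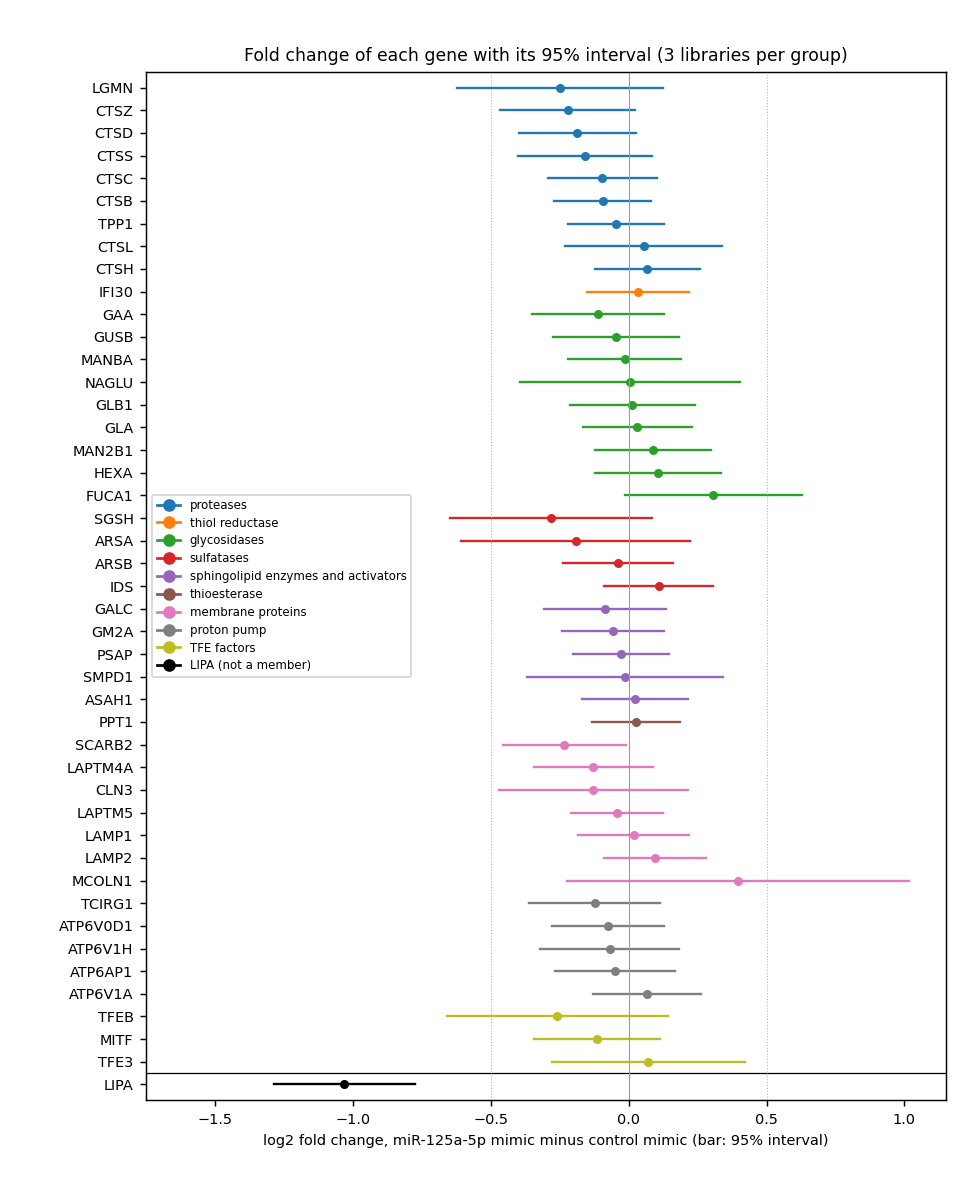
Log2 fold change (miR-125a-5p minus control, x axis) of each gene with its 95% interval from the edgeR fit, coloured by role, with dotted lines at -0.5 and 0.5. The interval of LIPA, from -1.29 to -0.78, lies below the lower bound of each of the 44 others.

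Of the 9 proteases 0 were called. With all 6 libraries 7 were below 0 on the log2 scale and their median was -0.096, and without control library 1 these were 5 and -0.044. Cathepsin D (CTSD), the main aspartic protease of the lysosome, stood at 712, 577 and 504 CPM in control libraries 1 to 3 and at 494, 533 and 550 CPM in the miR-125a-5p libraries. Cathepsin Z (CTSZ), a carboxypeptidase, stood at 92.8, 78.0 and 66.7 CPM in the controls and 70.9, 67.9 and 65.0 CPM in miR-125a-5p libraries. Cathepsin S (CTSS), which trims the invariant chain of class II molecules, had 785, 514 and 531 CPM in the controls and 556, 577 and 506 CPM in miR-125a-5p libraries. In all 3 genes control library 1 was the highest of the 6. Control library 2 also lay above the miR-125a-5p libraries for CTSD and CTSZ but not for CTSS, and control library 3 lay within their range in all 3 genes. The log2 fold changes were -0.19 (SE 0.10) for CTSD, -0.22 (SE 0.12) for CTSZ and -0.16 (SE 0.12) for CTSS, with edgeR adjusted p of 0.864, 0.859 and 0.905. Without control library 1 they were -0.044, -0.093 and 0.061, so the values for CTSD and CTSZ shrank by over 1.5 times and that for CTSS changed sign.

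Legumain (LGMN), an asparaginyl endopeptidase that processes cathepsins, was scarce, at 19.6, 17.5 and 15.7 CPM in the controls and 14.1, 16.96 and 13.4 CPM in miR-125a-5p libraries. The groups overlapped in 1 library of each, and the log2 fold change was -0.25 (95% interval -0.62 to 0.12, edgeR adjusted p = 0.905), or -0.16 without control library 1. Cathepsin L (CTSL), a cysteine endopeptidase, varied most between libraries of one group among the abundant genes. It stood at 671, 437 and 400 CPM in the controls and 617, 498 and 451 CPM in miR-125a-5p libraries, so library 1 was the highest in both groups. Its log2 fold change was 0.055 with all 6 libraries and 0.32 without control library 1 (edgeR adjusted p = 0.498, range over all settings tried 0.498 to 0.998). It was negative without control library 2 (-0.038), control library 3 (-0.086) or miR-125a-5p library 1 (-0.084). CTSB (-0.094), CTSC (-0.096), which activates serine proteases of granules, CTSH (0.067) and the tripeptidyl peptidase TPP1 (-0.046) had intervals within -0.30 to 0.26. IFI30, the thiol reductase that opens disulfide bonds of antigens, stood at 674 ± 72.2 CPM (SD, n = 3) in the controls and 690 ± 25.6 CPM (SD, n = 3) in miR-125a-5p libraries, with a log2 fold change of 0.033.

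Glycosidases cut sugars from glycoproteins, glycolipids and glycogen, and of the 9 in the set 3 were negative and 6 positive, with a median of 0.013 and 0 called. FUCA1, the lysosomal alpha-L-fucosidase, had 21.1, 20.01 and 17.5 CPM in the controls and 23.4, 24.7 and 24.4 CPM in miR-125a-5p libraries. Every miR-125a-5p library lay above every control library, and the log2 fold change was 0.31 (SE 0.16, 95% interval -0.015 to 0.63), with an edgeR adjusted p of 0.85. It did not pass, and with 1 library left out at a time its log2 fold change ranged from 0.23 to 0.37. The subunit HEXA of beta-hexosaminidase A (0.11), acid alpha-glucosidase GAA, which digests glycogen (-0.11), and the alpha-mannosidase MAN2B1 (0.088) came next in size. GUSB, GLB1, GLA, MANBA and NAGLU, which act on glucuronides, galactosides, mannosides and heparan sulfate, had log2 fold changes between -0.047 and 0.030. The GLA row may not hold GLA reads alone, since a readthrough gene spans it.

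Sulfatases remove sulfate groups from glycosaminoglycans and sulfolipids. SGSH, the heparan N-sulfatase, stood at 18.3, 18.9 and 15.4 CPM in the controls and 14.3, 13.8 and 15.2 CPM in miR-125a-5p libraries. The lowest control library and the highest miR-125a-5p library differed by less than the spread within the control group. Its log2 fold change was -0.28 (SE 0.18, 95% interval -0.65 to 0.086, edgeR adjusted p = 0.884), from raw counts of 122 to 187 per library. Arylsulfatase A (ARSA), which acts on sulfatide, had -0.19 with an interval of -0.61 to 0.22, ARSB -0.039 and iduronate 2-sulfatase (IDS) 0.11. These 4 genes share an enzyme class but not a direction, with 3 negative and 1 positive.

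Of the 5 enzymes and activators of sphingolipid breakdown 0 were called, with 4 negative and a median log2 fold change of -0.028. The galactosylceramidase GALC, the acid ceramidase ASAH1, the acid sphingomyelinase SMPD1, the saposin precursor PSAP and the GM2 activator GM2A had log2 fold changes of -0.086, 0.022, -0.014, -0.028 and -0.057. PSAP stood at 661 ± 41.8 CPM in the controls and 648 ± 12.6 CPM in miR-125a-5p libraries, and GM2A at 212 ± 6.51 and 204 ± 6.55 CPM (SD, n = 3 each). SMPD1 was spread more widely within the miR-125a-5p group, at 34.6, 20.2 and 23.1 CPM, than within the controls, at 28.2, 25.8 and 24.6 CPM. No direction can be read for it, since its interval ran from -0.37 to 0.34.

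PPT1, the thioesterase that takes fatty acids off palmitoylated proteins, had the most counts of the 44 and held 26.1% of all their counts. Its CPM were 3539, 3702 and 3671 in the controls and 3645, 3859 and 3601 in miR-125a-5p libraries, with a log2 fold change of 0.025 (95% interval -0.13 to 0.18) although its 3′ UTR holds the 8-base site in 9 of 9 annotated versions. The row may not hold PPT1 reads alone. In RefSeq the end of PPT1 overlaps that of CAP1, an actin regulator on the opposite strand, by 1188 bases, and the strand setting of the counting is not given in the sources used here. CAP1 had 66460 to 84592 counts per library against 30066 to 36061 for PPT1, the ratio of PPT1 to CAP1 stayed between 0.426 and 0.470, and CAP1 had a log2 fold change of 0.061 (edgeR adjusted p = 0.952). What share of the PPT1 count comes from CAP1 was not tested, so the flat value is a value of this row, not of PPT1 alone.

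Membrane proteins gave the only one of the 44 genes with an unadjusted p under 0.05. SCARB2 (LIMP-2), the receptor that carries glucocerebrosidase to the lysosome, stood at 410, 313 and 291 CPM in the controls and 298, 267 and 297 CPM in miR-125a-5p libraries. Control library 1 lay far above the rest, and control library 3 lay below 2 of the miR-125a-5p libraries. The log2 fold change was -0.23 (SE 0.11, 95% interval -0.45 to -0.012), with an unadjusted p of 0.0400 and an adjusted p of 0.833 by edgeR. It was -0.073 without control library 1, and with 1 library left out at a time it ranged from -0.33 to -0.073. Of its 10 annotated 3′ UTRs, 5 held the 8-base match.

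The main membrane glycoproteins LAMP1 and LAMP2, which line the inner face of the lysosomal membrane, stood at 232 ± 14.4 and 507 ± 51.1 CPM in the controls and 235 ± 26.7 and 541 ± 18.7 CPM in miR-125a-5p libraries (SD, n = 3 each). Their log2 fold changes were 0.019 and 0.094. LAPTM5, a lysosomal protein of blood cells that limits surface receptors, was among the steadiest of the set, with 949 to 1027 CPM over all 6 libraries and a log2 fold change of -0.042. LAPTM4A (-0.13) and CLN3 (-0.13) overlapped between groups. MCOLN1, the calcium channel that acts upstream of calcineurin and TFEB, had the largest fold change of the 44 with all 6 libraries and the fewest counts. It stood at 4.12, 4.62 and 4.31 CPM in the controls and 5.52, 7.17 and 4.43 CPM in miR-125a-5p libraries, so miR-125a-5p library 3 fell among the controls. The log2 fold change of 0.40 had an interval of -0.22 to 1.02 and an edgeR adjusted p of 0.911, from 37 to 66 counts per library. With 1 library left out at a time it ranged from 0.19 to 0.54, and it was 0.19 without miR-125a-5p library 2, below the 0.29 of FUCA1 in the same libraries.

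The proton pump was represented by TCIRG1 and ATP6V0D1 of the membrane-bound V0 sector, ATP6V1A and ATP6V1H of the cytosolic V1 sector, and the accessory subunit ATP6AP1. Their log2 fold changes were -0.12, -0.075, 0.066, -0.069 and -0.050, 0 were called, and the intervals together ran from -0.36 to 0.26. Summed over the 5 genes the level was 545 to 654 CPM in the controls and 566 to 614 CPM in miR-125a-5p libraries, so the miR-125a-5p range lay inside the control range. The top of the control range was control library 1. The other controls were at 599 and 545 CPM, below the 614 CPM of miR-125a-5p library 3. Of 16 further pump genes, 15 were tested and 0 called, 7 of them negative and 8 positive. ATP6V0D2, an alternative d subunit, had 8.72 ± 1.45 CPM in the controls and 4.82 ± 0.988 CPM in miR-125a-5p libraries (log2 fold change -0.86, edgeR adjusted p = 0.532). ATP6V0E2, an alternative e subunit, had 7.14 ± 1.03 and 11.1 ± 2.50 CPM (0.64, edgeR adjusted p = 0.670). Both differed without overlap of the groups, both were scarce, and neither passed. They were named for having the smallest p of their list. Of the 15 tested, 1 lay wholly below and 1 wholly above the controls, against backgrounds of 5.9% and 5.31%.

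TFEB stood at 13.2, 18.1 and 14.1 CPM in the controls and 11.04, 13.5 and 13.4 CPM in miR-125a-5p libraries. One control library lay within the miR-125a-5p range, and the log2 fold change was -0.26 (SE 0.195, 95% interval -0.66 to 0.14, edgeR adjusted p = 0.909). It was -0.35 without control library 1 and -0.12 without control library 2, the library with the highest value. MITF stood at 74.2 ± 4.76 CPM in the controls and 68.4 ± 6.66 CPM in miR-125a-5p libraries (log2 fold change -0.12), and TFE3 at 21.6 ± 4.69 and 22.7 ± 1.63 CPM (0.072). These factors are controlled largely by phosphorylation and entry into the nucleus, which RNA counts do not measure. Of 21 genes listed as their relatives and regulators (Rag GTPases, folliculin complex, Ragulator, mTORC1 and calcineurin), all were tested, 0 were called, 6 were negative and 15 positive, with a median of 0.040. TFEC, the fourth member of the family, had 208 ± 10.0 CPM in the controls and 179 ± 7.18 CPM in miR-125a-5p libraries, all 3 below the controls (log2 fold change -0.21, edgeR adjusted p = 0.790), and RPTOR, which recruits substrates to mTORC1, had -0.20 (0.884). Of the 21 tested, 2 lay wholly below and 0 wholly above the controls, against backgrounds of 5.9% and 5.31%.

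The CLEAR element was looked for in the RefSeq promoter windows (GRCh38.p14, 250 bases before to 50 after the gene start), which were given for 31 of the 44 genes. The 8 bases TCACGTGA were in 5 of the 31 (16.1%, against 1.82% of the promoters of tested genes and 1.04% of all 27305 promoters), the same 8 with G before and C after them, a palindrome of 10 bases, in 2 (6.45%, against 0.742% and 0.381%), and the E-box CACGTG at the core in 7 (22.6%, against 9.96% and 7.43%). The motifs are nested, so each longer match is counted among the shorter ones, and being palindromes they read alike on both strands. The windows with the longer matches are shown with the match in capitals, to let the promoters be compared. For LAMP1 and MCOLN1, 1 of several matches is shown.
GAA promoter, first match: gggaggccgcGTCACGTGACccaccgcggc
GAA promoter, second match: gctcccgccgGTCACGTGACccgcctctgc
MCOLN1 promoter: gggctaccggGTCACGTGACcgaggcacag
CLN3 promoter: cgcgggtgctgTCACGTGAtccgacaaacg
ATP6V0D1 promoter: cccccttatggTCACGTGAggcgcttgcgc
LAMP1 promoter: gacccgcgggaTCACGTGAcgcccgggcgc
These windows are at chr17:80101493-80101522 and chr17:80101538-80101567 (plus strand) for GAA, chr19:7522598-7522627 (plus) for MCOLN1, chr16:28492058-28492087 (minus) for CLN3, chr16:67481199-67481228 (minus) for ATP6V0D1 and chr13:113297199-113297228 (plus) for LAMP1. The 5 genes had log2 fold changes of -0.11, 0.40, -0.13, -0.075 and 0.019, 3 negative and 2 positive, and none was called.

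Seed matches were compared with the fold changes. Of the 44 genes 43 had an annotated 3′ UTR of a coding transcript, and GLA did not. The 8mer CTCAGGGA was in the longest 3′ UTR of 2 of the 43 (4.65%, against 6.002% of the 12796 tested genes searched). The 7mer-A1 TCAGGGA was the best match of 6 (CTSC, GLB1, IDS, LAMP1, ARSB and PSAP), the 7mer-m8 CTCAGGG of 0 and the 6mer TCAGGG of 8, and 27 had none. The share with a match of 7 or 8 bases, 8 of 43 (18.6%), stood beside 24.3% of all genes searched. Among the 8, 4 were negative, and their median log2 fold change was -0.0074, beside -0.057 for the 27 genes with no match and, over all genes searched, -0.029 and 0.015. Among the 44, the genes with such a match had the higher median, and over all genes searched they had the lower one. The difference within the 44 was not tested. The 8 include the PPT1 row, which may hold CAP1 reads. Only some annotated 3′ UTRs held the match for CTSC (1 of 4), IDS (1 of 3), ARSB (2 of 3) and SCARB2 (5 of 10).

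Outside the 44, sites were read out only for LIPA and NEU1, the further enzymes with the smallest p. For the other genes of the further lists they are not given here. Both LIPA and NEU1 carried the 8-base site, which 6.002% of all genes searched held. LIPA held it in 3 of 3 annotated 3′ UTRs. NEU1 stood at 67.9, 81.6 and 71.2 CPM in the controls and 43.5, 53.4 and 55.1 CPM in miR-125a-5p libraries, without overlap (log2 fold change -0.54, edgeR adjusted p = 0.172, range over all settings 0.00806 to 0.636). DESeq2 called it lower (adjusted p = 0.0400), as did edgeR's likelihood ratio test (0.0240). LIPA and NEU1 were named here with their values known.

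**Figure D3:**
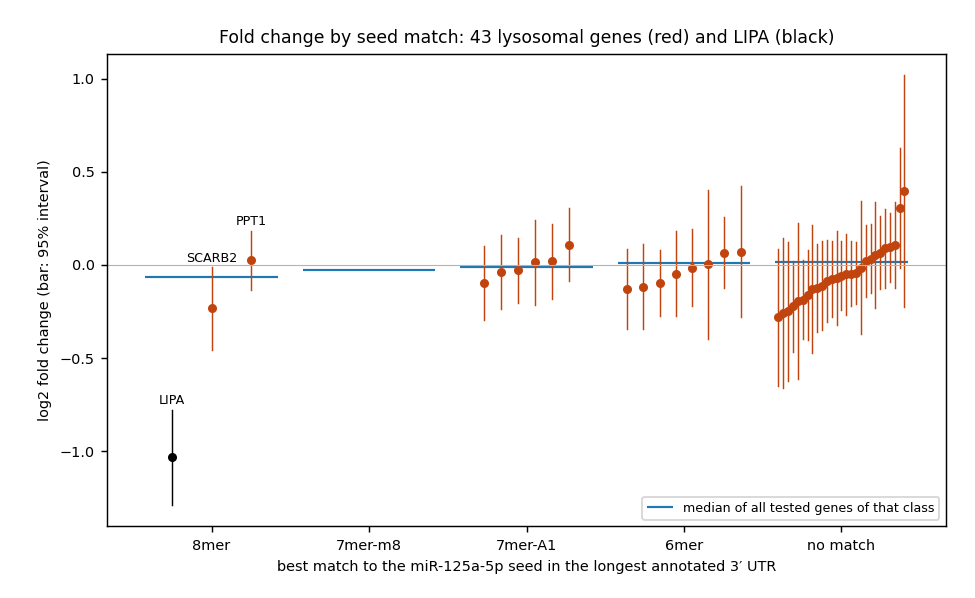
Log2 fold change (y axis, bars are 95% intervals) of 43 lysosomal genes (red) and LIPA (black) by the best match to the miR-125a-5p seed in the longest annotated 3′ UTR. Blue lines are the medians of all tested genes of that class. PPT1 and SCARB2, the 2 of the set with an 8mer, lie at 0.025 and -0.23, above LIPA at -1.03.

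The further enzymes of the lysosome, 26 in the list with 25 tested, gave 17 negative and 8 positive fold changes, and LIPA was the 1 called, lower. At an unadjusted p under 0.05, 4 were lower and 0 higher, against a background of 3.22% lower and 2.69% higher. Of the 25 tested, 3 lay wholly below and 0 wholly above the controls, against backgrounds of 5.9% and 5.31%. The list includes LIPA and NEU1, known to be low from earlier results. Of 24 further membrane proteins and transporters 23 were tested, 13 were negative and 10 positive, with 0 called. Of these 23, 4 were lower and 1 higher at an unadjusted p under 0.05. CLN6, a protein of the endoplasmic reticulum whose loss causes lysosomal storage, had 126 ± 4.01 CPM in the controls and 96.1 ± 13.7 CPM in miR-125a-5p libraries (log2 fold change -0.39, edgeR adjusted p = 0.393). LAMP3, a relative of LAMP1 found in mature dendritic cells, had 12.8 ± 3.62 and 7.45 ± 0.352 CPM (-0.79, edgeR adjusted p = 0.455). Both had all miR-125a-5p libraries below the controls, and were named for having the smallest p of their list. Of the 23 tested, 4 lay wholly below and 1 wholly above the controls, against backgrounds of 5.9% and 5.31%.

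Genes that sort enzymes to the lysosome, 13 in all, were 7 negative and 6 positive with 0 called. M6PR, the cation-dependent mannose 6-phosphate receptor, had 198 ± 6.96 CPM in the controls and 173 ± 10.7 CPM in miR-125a-5p libraries (log2 fold change -0.20), and GGA2, an adaptor for these receptors at the Golgi, 423 ± 12.4 and 385 ± 31.8 CPM (-0.14), with edgeR adjusted p of 0.833 and 0.891. Without miR-125a-5p library 2 the value for GGA2 was -0.072. Cystatins, the inhibitors of cysteine cathepsins, had 4 tested genes of 5, 3 negative and 1 positive. CSTB had a log2 fold change of -0.17 (-0.023 without control library 1) and CSTA of 0.16 (0.046 without control library 2), and neither passed.

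Control library 1 was the highest of the 6 libraries for 21 of the 44 genes (47.7%), and for 21.3% of all tested genes. This library lay at -38.2 on the first principal component, the others at 1.14 to 16.3, and it was the deepest, with 10257791 counts against 8256149 to 9356861. The 44 genes held 1.47% of its counts and 1.35% to 1.42% of those of the other 5. Summed over the 9 proteases the level was 4974 CPM there, against 4424 and 4095 CPM in the other controls and 4150 to 4359 CPM in the miR-125a-5p libraries. The summed level of 10 monocyte markers, all 10 tested, was 4231 CPM there, against 3857 and 4023 CPM in the other controls and 3775 to 3937 CPM with miR-125a-5p. That order rested on ITGB2, a leukocyte integrin subunit: without it the sum was 3055 CPM in control library 1 and 3121 CPM in control library 2, and 4 of the 10 markers were highest in control library 1. Of 12 markers of other cell types, CD3E, HBB, HBA1 and KRT18 had 0 counts, and PECAM1, which monocytes also carry, held nearly all of a sum of 309 to 327 CPM in the controls and 283 to 341 CPM in miR-125a-5p libraries. The part of these in the results was not tested. Without control library 1 the number of negative values was 3 in place of 4 among the 5 pump genes, 2 in place of 4 among the 5 sphingolipid genes and 2 in place of 3 among the 4 sulfatases. The median log2 fold change of the 44 genes was then -0.015 and 23 were negative, 0 were called by edgeR, and 0 lower and 3 higher had an unadjusted p under 0.05.

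**Figure D4:**
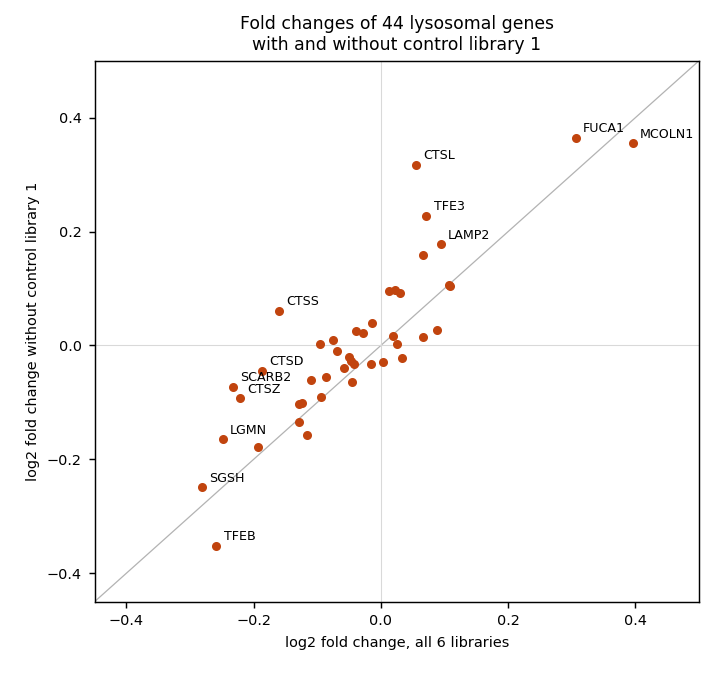
Log2 fold change of the 44 genes with all 6 libraries (x axis) and without control library 1 (y axis), with the line of equal values. Points above the line moved up when the library was left out, among them CTSL (0.055 to 0.32) and CTSS (-0.16 to 0.061).

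Levels of different genes were compared per length, as CPM per kilobase of annotated exon. PPT1 was first at 715 ± 17.1 in control libraries (SD, n = 3), a row that may hold CAP1 reads. LAPTM5 (308 ± 5.15) and IFI30 (272 ± 29.1) followed, then CTSL (212 ± 62.3), TPP1 (207 ± 12.1), PSAP (204 ± 12.9) and CTSD (191 ± 33.7), which did not differ beyond their spread. At the other end were TFEB (2.69 ± 0.459), SGSH (2.61 ± 0.287), CLN3 (1.97 ± 0.102) and MCOLN1 (1.10 ± 0.0634). Among the factors MITF was at 10.33 ± 0.662, TFE3 at 5.05 ± 1.09 and TFEB lowest. With the length of the longest transcript in place of all exons, the median over the 44 genes was 39.2 in place of 19.7, CLN3 was at 5.01 and TFEB at 5.84, so the order of the low genes depends on the length used. By that length TFE3 was at 6.33 ± 1.37 and TFEB at 5.84 ± 0.999, which did not differ beyond their spread.

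**Figure D5:**
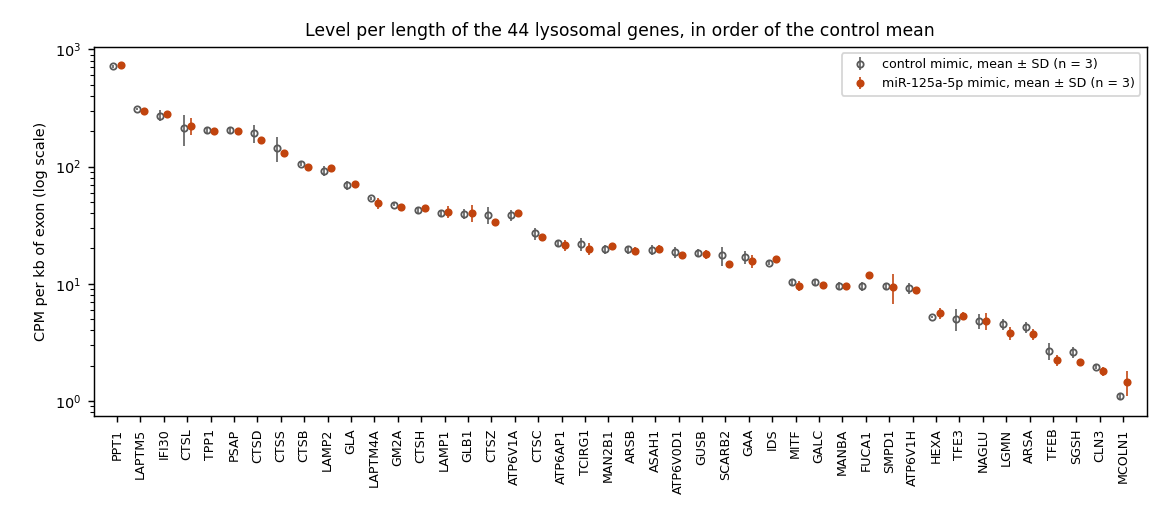
CPM per kilobase of exon (log axis) of the 44 genes in order of their control mean, with mean and SD of 3 control (grey) and 3 miR-125a-5p libraries (red). Levels span from 715 (PPT1) to 1.10 (MCOLN1) in control, and the groups lie close together at every level.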

How the data were processed

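Total RNA of 6 THP-1 libraries (3 per mimic) was sequenced. The deposited table holds unnormalized read counts by gene. The tools named per the submitters' processing notes are bcl2fastq, TopHat and edgeR, and the build is hg19. Counting tool, annotation and strand setting: not given in the sources used here, so overlapping genes and near-identical copies cannot be told apart: 7 of the 44 genes overlap another row and 7 have named pseudogenes. Gene identifiers matched RefSeq (GRCh38.p14, names only) for 26204 of 26347 rows. Columns of no library numbered 0. Replicate pairs differed beyond sampling noise (mean chi-square per gene 4.01 to 12.0). All 6 were counted separately, though such differences do not show that the libraries came from separate cultures.

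The test was that of edgeR 4.0.16 under R 4.3.3 (filterByExpr, 14731 of 21274 genes with any count, trimmed mean of M-values, glmQLFit, glmQLFTest, no covariate), adjusted by Benjamini-Hochberg. SE is the log2 fold change over the root of F, and the 95% interval uses the degrees of freedom of that test. Totals were 8256149 to 10257791 counts per library. Seed sites were searched in the longest 3′ UTR of at least 20 bases of coding transcripts. The steps were tested on simulated counts with set changes larger than any seen in the 44 genes. That test does not show how often changes of the size seen here would be found. DESeq2 1.42.0, limma 3.58.1 and other settings were alternatives. Values in full are given for the 8 of the 44 genes with the smallest p, and up to 2 genes of each further list. CTSL, PPT1, MCOLN1 and SMPD1 were added after their values were seen. The 44 genes and the lists were chosen with earlier results of these data known.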

Additional observations from a re-analysis of the deposited data

How the results depend on the processing

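Of 14 other settings, 0 called any of the 44 genes. Their log2 fold changes kept their sign in all but 34 of 616 pairs of gene and setting. All 34 came from leaving out 1 library, in 18 genes whose value was at most 0.16 in size. The median over the 44 ranged from -0.081 (without control library 3) to -0.015 (without control library 1), less than the spread between libraries (SD 0.057) from its value. Over all genes the numbers lower and higher were 41 and 11 with no count filter, 11 and 2 with DESeq2, 17 and 4 with the likelihood ratio test, and 3 to 14 and 0 to 2 with 1 library left out (14 lower without control library 3, 2 higher without miR-125a-5p library 3). With the replicate number as a block 9 were lower. Deviations from the group means had correlations of 0.056, 0.014 and -0.016 between same-numbered libraries. Between libraries of differing number they ran from -0.064 to 0.046. With 3 libraries per group, whether the numbers pair the libraries cannot be told from these values. Of the further lysosomal genes 2 were lower with no count filter, DESeq2 or the likelihood ratio test, NEU1 being the second. With the shortest 3′ UTR, 4 of the 44 had a match of 7 or 8 bases. The promoter motif was in 5 as TCACGTGA and 7 as CACGTG. The median level per length was 39.2 with the longest transcript. The causes were not tested, apart from these constructions. At the counts of MCOLN1, SGSH, LGMN, ARSA and TFEB, intervals were wider than for the abundant genes.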

Other observations

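Other rows of the set also overlap a neighbour. GLA had 1216 to 1741 counts per library and the readthrough gene RPL36A-HNRNPH2, which spans it, 1195 to 1616, a ratio between 0.986 and 1.08 in all 6 libraries. What share of the reads the 2 rows have in common was not tested, so the GLA value is that of its row. GLB1 had 2.72 to 3.83 times the counts of TMPPE (400 to 521), and TCIRG1 1.75 to 2.68 times those of CHKA (323 to 413). CARD14 (4 to 22 counts), FAM47E (2 to 12) and ASAH1-AS1 (11 to 25) were small beside SGSH, SCARB2 and ASAH1. HGSNAT, the acetyltransferase of heparan sulfate breakdown, was above the controls in all 3 miR-125a-5p libraries, at 305 ± 16.95 against 248 ± 29.96 CPM (log2 fold change 0.30, edgeR adjusted p = 0.555), and DNASE2, the acid nuclease, below them, at 31.3 ± 4.97 against 44.3 ± 7.15 CPM (-0.50, edgeR adjusted p = 0.455). HGSNAT and DNASE2 lay outside the rule for named genes and were picked with their values in view.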
